A study of Homo sapiens with 2 samples.

Results

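The contractile and actin cytoskeleton genes of fibroblasts were taken as 10 named genes: ACTA2, TAGLN, CNN1, MYL9, TPM1, TPM2, CALD1, MYH9, VIM and SRF. Binding of JUNB near them was read from the 2 peak lists of a CUT&RUN experiment in IMR-90 human lung fibroblasts. In CUT&RUN an antibody, here against JUNB, leads a nuclease to its target on chromatin and the short fragments that are cut out are sequenced. One library came from cells with no treatment and 1 from cells given etoposide, which poisons topoisomerase II and breaks DNA and is widely used to make fibroblasts senescent. Its dose and duration are not given in the sources used here. A peak was counted for a gene when its summit, the position of highest signal, lay within 50 kb of the gene span in the RefSeq annotation of GRCh38. This gave 35 of 33491 untreated peaks and 20 of 26590 etoposide peaks. Peaks of the 2 lists that overlapped by 1 bp or more were treated as shared, and all others as single-library peaks. With 1 library per condition there is no replicate, so no difference between conditions was tested, and the values below describe these libraries. The fragments that pile up at each summit were recovered as whole numbers from the authors' fold and p, with medians of 15 (quartiles 11 and 21) over the untreated and 13 (10 and 17) over the etoposide list. The standing of a peak is the share of its own list that is weaker by the authors' -log10 q, and its local background is the number of fragments the caller expected there. Peak lists carry no RNA level, so the fibroblast label was not checked against marker expression.

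The genes encode parts of the machinery by which a fibroblast pulls on its surroundings. Actin filaments slide on myosin, tropomyosins and caldesmon line the filament and control access of myosin to it, and vimentin forms the separate intermediate filament network. Many genes of the actin group are activated by serum response factor, SRF, which binds the CArG box and takes its actin-sensing coactivators, the MRTF proteins, with it. JUNB is a subunit of AP-1, which binds DNA as a dimer of JUN and FOS family proteins and mostly at enhancers away from gene starts. Its consensus site is TGACTCA or TGAGTCA. The pattern searched for here was the looser TGANTCA, in which N is any base. In fibroblasts the contractile programme marks myofibroblasts, and ACTA2 is their usual marker.

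Sequences at gene starts were read from RefSeq windows (GRCh38.p14) that run from 250 bases before to 50 after each start. The table held 14 windows for 8 of the members, and TAGLN and MYL9 were not matched. Only the stretches that bear on the results are shown, all 5′ to 3′. The start of SRF carried 2 matches to the CArG box (CC, then A or T only, then GG), in capitals in its 100 bases before the start at chr6:43171169-43171268, plus strand.
SRF: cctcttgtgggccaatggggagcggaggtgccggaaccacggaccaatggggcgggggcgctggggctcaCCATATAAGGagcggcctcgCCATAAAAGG
These matches began 30 and 10 bp before the start. No other member window matched this strict pattern, and 1.30% of 34961 windows of all genes did. CArG boxes with another base in the A or T stretch were not searched for, so they may be present. The loose pattern TGANTCA, which reads the same on both strands, was present in 1 of the 14 member windows, against 7.68% of all windows. That match lay 126 bp before the first start of CALD1 and is in capitals in chr7:134711299-134711423, plus strand. It reads TGATTCA, with T at the centre, so it matches the loose pattern but not the consensus.
CALD1 first start: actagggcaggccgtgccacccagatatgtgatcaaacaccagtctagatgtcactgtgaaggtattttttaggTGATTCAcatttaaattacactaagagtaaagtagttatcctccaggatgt
Neither the SRF window nor this CALD1 window overlapped a JUNB peak of either list. The CArG box and TGANTCA matches were in windows of different genes.

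JUNB summits lay within 1 kb of a start at 3 members, and these places are shown because they are the listed peaks nearest to member starts. Only at VIM did the peak cover the start itself. At an internal start of CALD1 the shared peak ended 196 bp (untreated) and 170 bp (etoposide) before the start, and at MYH9 the untreated peak began 322 bp upstream. For VIM and CALD1 the capitals mark the bases that lie inside the peak in both lists. The VIM stretch is chr10:17227991-17228240 and the CALD1 stretch is chr7:134779384-134779633, both on the plus strand and both ending at the base before the start.
VIM start: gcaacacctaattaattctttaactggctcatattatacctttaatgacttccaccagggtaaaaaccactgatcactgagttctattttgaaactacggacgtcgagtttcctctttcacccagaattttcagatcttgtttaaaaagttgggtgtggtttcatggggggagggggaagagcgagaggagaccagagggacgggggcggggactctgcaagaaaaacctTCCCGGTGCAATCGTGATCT
CALD1 internal start: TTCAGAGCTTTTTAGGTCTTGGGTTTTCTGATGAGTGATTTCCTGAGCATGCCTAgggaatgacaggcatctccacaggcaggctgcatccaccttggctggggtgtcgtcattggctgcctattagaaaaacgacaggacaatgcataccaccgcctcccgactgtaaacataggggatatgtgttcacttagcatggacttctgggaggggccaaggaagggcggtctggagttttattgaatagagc
The shared peak took in the last 20 bases before the VIM start and the first 55 bases of the CALD1 stretch. The MYH9 peak had no etoposide counterpart and held one of the starts of the divergent transcript MYH9-DT, at 36388322. The whole peak, chr22:36388289-36388494, is given on the plus strand, with the summit and 10 bases on either side in capitals.
MYH9 upstream peak: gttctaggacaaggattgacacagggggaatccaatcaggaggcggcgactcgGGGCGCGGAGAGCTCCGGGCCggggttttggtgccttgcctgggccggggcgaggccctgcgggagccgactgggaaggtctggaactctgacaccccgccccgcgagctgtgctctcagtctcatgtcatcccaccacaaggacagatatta
The printed stretches of VIM and CALD1 hold 20 and 55 bases of overlaps of 252 and 203 bp between the lists and leave out the summits, so these peaks were for the most part not searched for motifs. The letters TGANTCA were absent from the 3 stretches as printed, of which only that of MYH9 is a whole peak.

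Counted over genes, 8 of the 10 members had an untreated peak within 50 kb and 7 had an etoposide peak. Over all 19974 protein-coding genes the shares were 72.0% and 62.6%, so the members' counts stood near the background. The 7 members with an etoposide peak were ACTA2, TAGLN, CNN1, TPM1, CALD1, VIM and SRF, and each of them had at least 1 shared peak. This made 7 of 10 members with a shared peak, against 51.1% of all genes, and among genes with an etoposide peak 81.6% had a shared one. MYH9 had untreated peaks alone, as 13.5% of all genes did, no member had etoposide peaks alone (4.05% of all genes), and MYL9 and TPM2 had no peak in either list (23.9%). More untreated than etoposide peaks were found at 7 members (45.6% of all genes) and equal numbers at CALD1 (17.6%). No member had more etoposide peaks (12.9%). The median member had 3 untreated and 1 etoposide peak, and the median protein-coding gene had 2 and 1.

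**Figure D1:**
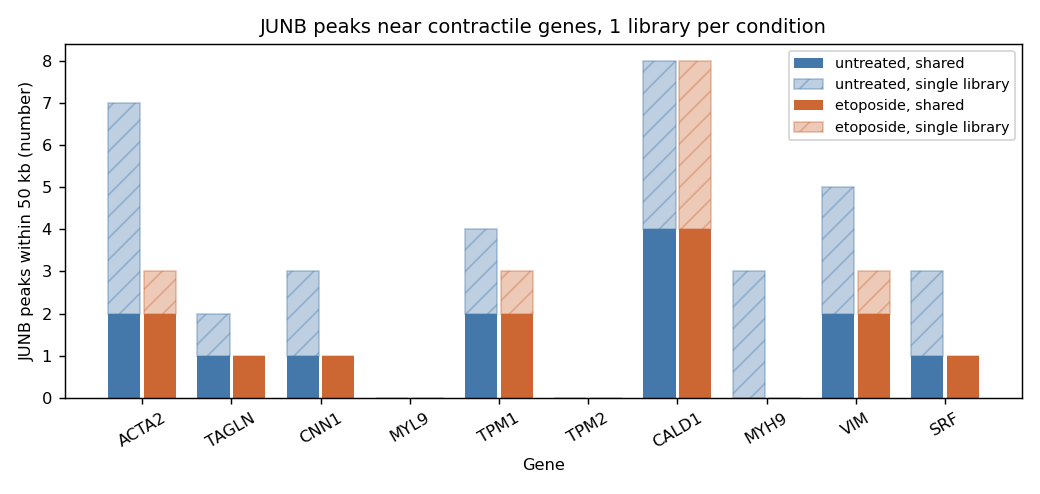
Number of JUNB peaks with a summit within 50 kb of each gene, untreated in blue and etoposide in orange; solid parts are shared peaks and hatched parts single-library peaks. CALD1 has 8 in each library, ACTA2 has 7 untreated and 3 etoposide, and MYL9 and TPM2 have none.

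Counted over peaks, the etoposide library had 0.571 times as many as the untreated library near the members and 0.791 times as many on chromosomes 1 to 22 and X as a whole. The etoposide share of the 55 member peaks was 36.4% (95% Wilson interval 24.9% to 49.6%), and the interval takes in the 44.2% of the whole lists. It treats the peaks as independent, although each shared place is counted once in each list. Whether the share near the members is lower was therefore not tested. Of the untreated member peaks 13 of 35 were shared, 37.1% (23.2% to 53.7%), and of the etoposide member peaks 13 of 20, 65.0% (43.3% to 81.9%). The whole lists gave 51.0% and 64.8%, inside these intervals. All intervals cover counting error only. Inside the gene spans lay 14 untreated and 8 etoposide summits. The member was the nearest protein-coding gene for 20 of the 35 untreated and 12 of the 20 etoposide peaks, and the others lay nearer to a neighbour.

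**Figure D2:**
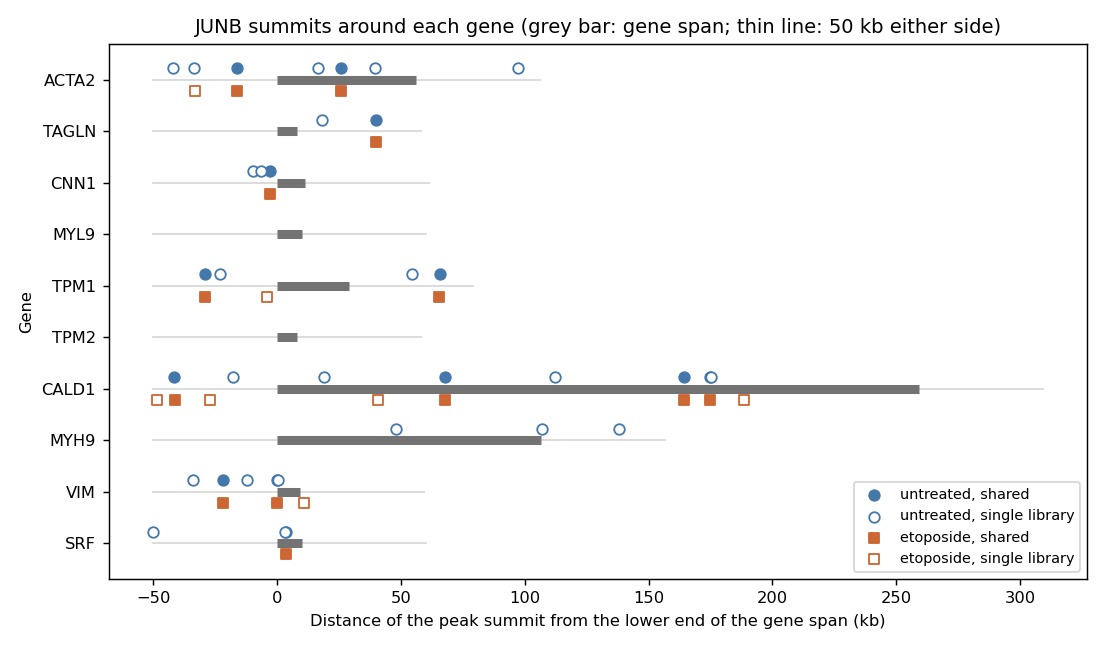
Position of every JUNB summit relative to the lower end of each gene span, in kb; blue circles are untreated and orange squares etoposide, filled for shared and open for single-library peaks, with the gene span as a grey bar. Shared summits lie inside ACTA2, CALD1, VIM and SRF, and shared summits lie only outside the span at TAGLN, CNN1 and TPM1.

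ACTA2, the alpha-actin of smooth muscle and myofibroblasts, spans chr10:88935074-88991337 on the minus strand and had 7 untreated and 3 etoposide peaks. Its 7 untreated peaks were more than 93.5% of all genes had. The shared peak inside the gene span lay at 88960820 to 88961021 untreated and 88960834 to 88961024 etoposide. Its summits were 8.17 kb (untreated) and 8.19 kb (etoposide) upstream of the internal ACTA2 start. It had 11 fragments stacked at the untreated summit (95% Poisson interval 5.49 to 19.7) and 13 at the etoposide summit (6.92 to 22.2). It was the only shared peak of any member with more etoposide than untreated fragments. The other shared peak, 16.0 kb beyond the gene's end and inside the neighbour STAMBPL1, had 19 and 18 fragments. The 5 single-library untreated peaks had 8 to 13 fragments. The weakest of them, at 88974602 to 88974852, lay where ACTA2 and the death receptor gene FAS overlap and stood above only 0.510% of its list. A further untreated peak at 88951460 to 88951779 with 12 fragments lay 1.17 kb downstream of the internal ACTA2 start. In STAMBPL1 an untreated and an etoposide peak with 10 and 9 fragments missed each other by 115 bp, so they counted as single-library peaks. Neither start of ACTA2 in the table had a summit within 1 kb.

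TAGLN, which encodes the actin-bundling protein transgelin (SM22-alpha), spans chr11:117199294-117207465 and had 2 untreated and 1 etoposide peak, none inside the gene. The shared peak lay 31.9 kb beyond the span, inside RNF214, with 18 untreated fragments (10.7 to 28.4) and 14 etoposide fragments (7.65 to 23.5). The untreated peak inside PCSK7, 9.86 kb beyond the span, had 9 fragments and no etoposide counterpart. Both places lie inside other genes, and positions alone do not assign them to TAGLN.

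CNN1, calponin, an actin-binding inhibitor of the myosin ATPase, spans chr19:11538851-11550323 on the plus strand and had the strongest member peak of both lists. The peak lay 2.83 kb upstream of the gene start in intergenic sequence, at 11535901 to 11536126 untreated and 11535916 to 11536121 etoposide, with summits 1 bp apart. It held 43 fragments in the untreated library (31.1 to 57.9) and 24 in the etoposide library (15.4 to 35.7), and stood above 96.0% of untreated and 87.6% of etoposide peaks. The untreated count was the higher, and the 2 intervals overlapped. The authors' -log10 q at the summit was 28.1 for the untreated and 15.0 for the etoposide peak. Another 2 untreated peaks followed further upstream, 6.50 kb away with 30 fragments and 9.75 kb away with 19 fragments inside ECSIT, and both had no etoposide counterpart.

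The tropomyosins, coiled-coil proteins that run along the actin filament, differed from each other. TPM1, chr15:63042747-63071915 on the plus strand, had 4 untreated and 3 etoposide peaks, all outside the gene. Its shared peak 29.2 kb upstream held 15 untreated fragments (8.40 to 24.7) and 11 etoposide fragments (5.49 to 19.7). The other shared pair, 36.5 kb downstream and nearest to LACTB, held 8 and 8 fragments. It stood above only 0.141% of untreated and 8.75% of etoposide peaks. Its peaks met in only 16 bp and their summits were 266 bp apart, the widest gap of any member pair. Untreated peaks alone lay 22.9 kb upstream (21 fragments) and 25.5 kb downstream (17 fragments). An etoposide peak alone lay 3.97 kb upstream (7 fragments, above 0.824% of its list). These TPM1 distances are from the gene span, and the summit of this etoposide peak was 9.71 kb before the TPM1 start used here. TPM2, chr9:35681993-35690056 on the minus strand, had no peak of either list within 50 kb. Its window also holds TLN1, the gene for the actin-to-integrin linker talin.

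CALD1, caldesmon, which binds actin, tropomyosin and myosin and restrains their movement, has the longest span of the members, chr7:134711499-134970729 on the plus strand. It had 8 peaks in each library, 4 of them shared, and 6.83% of all genes had as many shared untreated peaks. Per Mb of gene span and flanks this was 22.3 peaks in both libraries, higher than in 74.4% of genes untreated and in 87.2% of genes with etoposide. The strongest shared pair lay inside the gene at 134885961 to 134886400 untreated and 134886211 to 134886550 etoposide, with 21 (13.0 to 32.1) and 19 fragments (11.4 to 29.7). The pair at the internal start, whose sequence is given above, held 15 fragments in both libraries (8.40 to 24.7), 300 bp before the start in the untreated list and 306 bp in the etoposide list. This pair stood above 27.8% of untreated peaks and above 63.8% of etoposide peaks, the widest gap in standing among the member pairs, on local backgrounds of 1.98 and 1.15 fragments. The remaining shared pairs held 9 and 9 fragments inside the gene, and 13 and 9 fragments 41.5 kb upstream within BPGM. The 4 single-library untreated peaks held 15 to 20 fragments and the 4 single-library etoposide peaks 8 to 10, at different places. One of the untreated ones, at 134886679 to 134886896 with 20 fragments, lay 128 bp from an etoposide peak.

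The 2 myosin genes among the members had no etoposide peak within 50 kb. MYL9, a regulatory light chain of smooth muscle and non-muscle myosin II (chr20:36541519-36551447), had no peak of either list within 50 kb. MYH9, the heavy chain of non-muscle myosin IIA (chr22:36281280-36387967, minus strand), had 3 untreated peaks and none with etoposide. The peak 385 bp upstream of its start, shown above, had 14 fragments (7.65 to 23.5) and stood above 34.3% of its list. The other 2 had 15 fragments inside the gene and 10 fragments 31.3 kb upstream, and stood above 1.59% and 18.4% of the list. All 3 were weaker than the median of the list. A shared peak lay just outside the 50 kb limit of MYH9 and was not counted. Its summits were 51.855 kb (untreated, 20 fragments) and 52.112 kb (etoposide, 10 fragments) from the span.

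VIM, the gene of vimentin, spans chr10:17228241-17237593 on the plus strand and had 5 untreated and 3 etoposide peaks. At 45.7 untreated peaks per Mb of span and flanks it was above 96.5% of genes, and at 27.4 etoposide peaks per Mb above 92.4%. These ranks rest on 5 and 3 peaks, some of them nearer to a neighbouring gene. The shared peak over the gene start began at 17228221 in both lists, with summits 133 bp (untreated) and 106 bp (etoposide) downstream of the start. It held 26 untreated (17.0 to 38.1) and 21 etoposide fragments (13.0 to 32.1) and stood above 73.2% and 81.4% of the lists. A second untreated peak 520 bp downstream of the start, with 17 fragments, had no counterpart and lay 122 bp from the etoposide one. The other shared peak, 21.9 kb upstream with summits 1 bp apart, held 28 untreated (18.6 to 40.5) and 15 etoposide fragments (8.40 to 24.7). Its nearest protein-coding gene was TRDMT1, as it was for an untreated peak 33.8 kb upstream with 7 fragments. An untreated peak inside the antisense transcript VIM-AS1, 12.0 kb upstream, held 36 fragments on a local background of 7.51, where the median background of the list was 1.27. An etoposide peak alone lay 1.53 kb beyond the gene with 9 fragments.

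SRF itself, chr6:43171269-43181506 on the plus strand, had 3 untreated and 1 etoposide peak. The shared peak lay inside the gene, 2.53 kb (untreated) and 2.55 kb (etoposide) downstream of the nearer of its 2 starts in the table, and held 21 (13.0 to 32.1) and 17 fragments (9.90 to 27.2). An untreated peak with 16 fragments lay 189 bp away from the etoposide one. The start with the CArG boxes had no summit within 1 kb in either list. The third untreated peak, inside PTK7, lay just within the limit at 49.979 kb with 20 fragments. The nearest etoposide summit outside the limit belonged to a peak 77 bp away from it, at 50.277 kb and also with 20 fragments, which the rule left out. Just outside the limit in the untreated list was a peak 50.252 kb from CALD1 with 14 fragments, and the outermost etoposide peak inside it lay 48.652 kb from CALD1 with 9.

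At gene starts, 3 of the 8 members in the table had an untreated summit within 1 kb (MYH9, VIM and CALD1) and 2 had an etoposide summit (VIM and CALD1). Over 15812 protein-coding genes in the table the shares were 17.5% and 6.61%. The 2 members with etoposide were shared places, and 5.15% of genes had summits of both libraries there. With 8 genes these shares have wide counting error, and no test was made.

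Shared peaks can be set side by side as fragments at the same place. Summits of the 13 pairs were 1 to 266 bp apart with a median of 44 bp, and 8 were within 50 bp. Untreated fragments were the more numerous in 9 pairs, etoposide fragments in 1 and equal in 3, and over the 16610 shared untreated peaks of the whole list the untreated count was higher in 73.4%. Summed over the 13 pairs there were 247 untreated and 193 etoposide fragments, a ratio of 0.781, and over all shared peaks the ratio was 0.776. In 0 of the 13 pairs were the Poisson intervals apart. Fragment numbers are not corrected for depth. By standing within the own list, 7 pairs ranked higher with etoposide and 6 higher untreated, and in the whole list 43.1% ranked higher with etoposide.

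**Figure D3:**
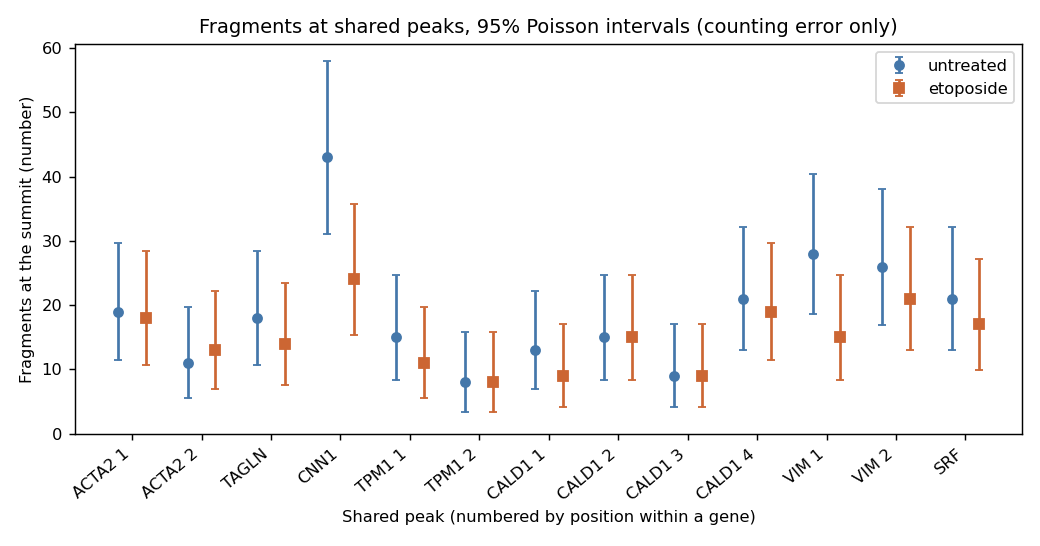
Fragments stacked at the summit of the 13 shared peaks, untreated as blue circles and etoposide as orange squares, with 95% Poisson intervals that cover counting error only. CNN1 has the highest count, 43 untreated and 24 etoposide, and the intervals overlap in every pair.

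The strength of the single-library peaks was set against the median of their own list. All 7 etoposide-only peaks were weaker than the median of their list, with 7 to 10 fragments, whereas 10 of the 22 untreated-only peaks were stronger than theirs, with 7 to 36 fragments over all 22. In the whole lists 27.7% of etoposide-only and 30.2% of untreated-only peaks were stronger than the list median. With 7 and 22 peaks the member counts have wide counting error, and a difference between libraries was not tested. Fragment numbers are not corrected for depth. The strongest untreated-only member peaks by -log10 q were the one 6.50 kb upstream of CNN1 (13.2) and the one inside CALD1 at 134730321 to 134730621 (12.9, 18 fragments). A different etoposide peak lay within 500 bp of 5 of the 22 untreated-only peaks, and an untreated peak lay within 500 bp of 1 of the 7 etoposide-only ones.

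**Figure D4:**
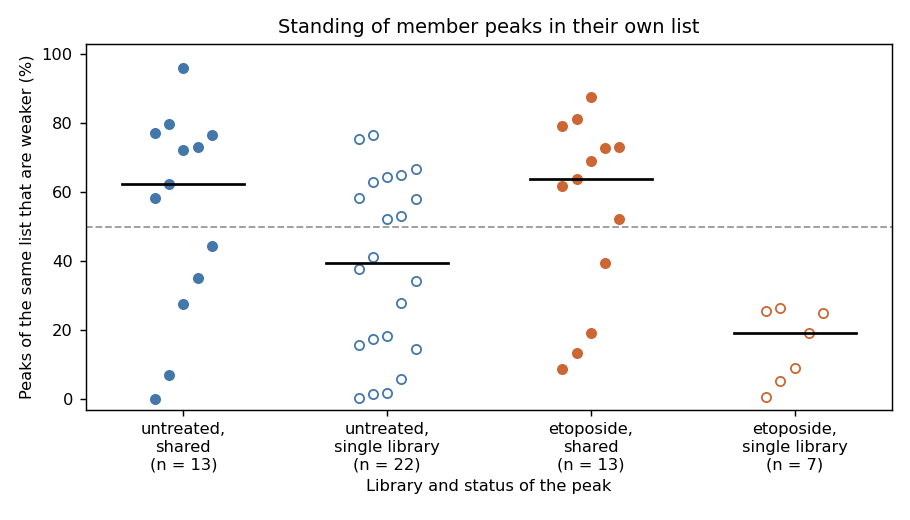
Share of peaks of the same list that are weaker by -log10 q (percent) for each member peak, by library and status; black lines are medians and the dashed line marks 50%. The etoposide-only peaks all lie below the dashed line, and the CNN1 peak is the highest point in both libraries.

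A wider list of 41 genes of contraction, focal adhesion and SRF signalling was described in the same way. It was chosen with earlier results of these data known, so its counts are descriptive and no test was made. Neighbouring genes such as MYL12A and MYL12B have largely the same window, so the same peaks can count for both. Of these, 40 had an untreated and 33 an etoposide peak within 50 kb, against 72.0% and 62.6% of all genes, and TLN1 had neither. Both libraries had a peak at 33 (58.6% of all genes) and the untreated library alone at 7, against 13.5%. More untreated peaks were found at 31 (45.6% of all genes). More etoposide peaks were found at 6, which stood near the background (12.9%). The median gene of the list had 4 untreated and 3 etoposide peaks, and the median of all genes was 2 and 1. The genes with more etoposide peaks, named here after their values were seen, included the kinase genes ROCK1 (2 untreated, 5 etoposide) and ROCK2 (1 and 6), smooth muscle myosin MYH11 (3 and 6) and the focal adhesion protein gene ZYX (3 and 4). ACTB and FLNC each had 1 untreated and 2 etoposide peaks. Of the etoposide peaks, 1 was shared at each of ROCK1, ROCK2, MYH11 and ACTB, and 2 at each of ZYX and FLNC. Genes with 5 shared untreated peaks, the highest number in the list, included VCL, SYNPO2, CNN3, MYOCD and MRTFA, and 3.78% of all genes had as many. MYOCD and MRTFA encode SRF coactivators, and VCL encodes the focal adhesion protein vinculin. Of the 36 genes of this list in the start table, 7 had an untreated summit within 1 kb of a start and 2 had summits of both libraries, against 17.5% and 5.15% of all genes, so these counts stood near the background. Such summits were listed in both libraries at ZYX and RHOA, the latter a GTPase that drives actomyosin contraction, and in the untreated library alone at MYH10, MYL12A, SMTN, MRTFA and MRTFB. CArG box matches were present in 13 of the 68 start windows of this list and TGANTCA in 3, against 1.30% and 7.68% of all windows. The list was chosen partly for known SRF targets.

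**Figure D5:**
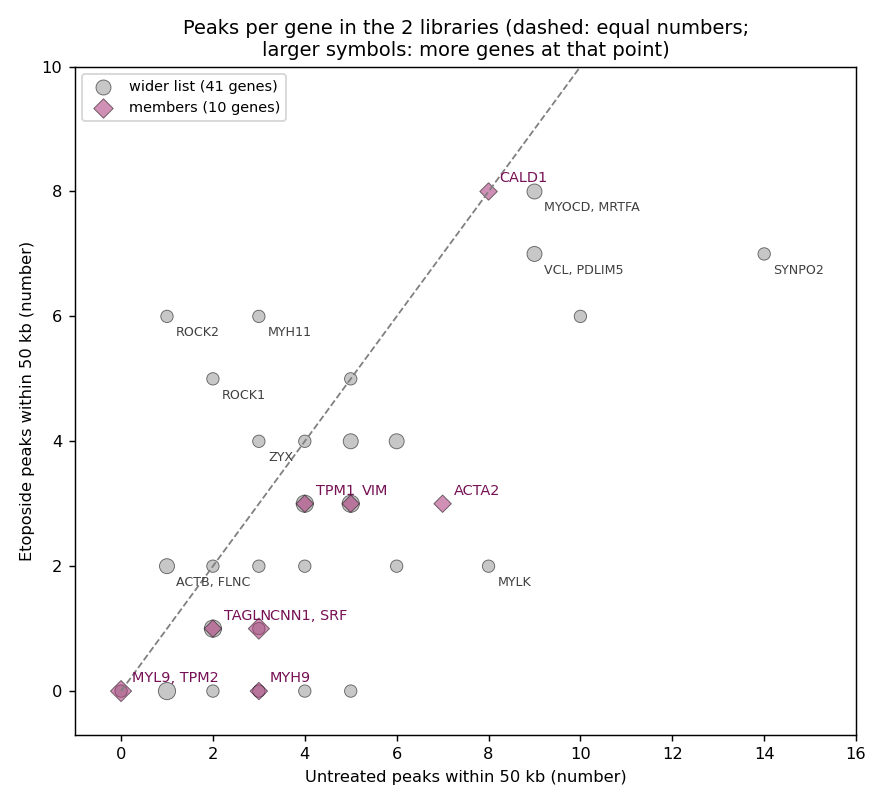
Untreated (x axis) against etoposide (y axis) number of JUNB peaks within 50 kb for the 10 members (diamonds) and the 41 genes of the wider list (circles); the dashed line marks equal numbers. CALD1 lies on the line, and ROCK1, ROCK2 and MYH11 lie above it.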

How the data were processed

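JUNB CUT&RUN peaks were analysed in 2 libraries of IMR-90 cells, grouped by the treatment label. Per the submitters' processing notes, Bowtie2 and MACS2 were used, with mm10 and hg38 named as builds and no versions. Control libraries are not given in the sources used here. Peaks were called per library, per the labels. The deposited fold is a ratio of summit fragments to local background, each raised by 1. The deposited significance values are -log10 p and -log10 q, and the deposited score equals 10 times -log10 q with decimals dropped. All are the authors' values, used to rank peaks within a list. Contig names and gene positions were those of GRCh38.

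Peaks on chromosomes 1 to 22 and X were used, 32550 untreated and 25739 etoposide. Peak lists give no depth. Fragments at each summit were worked out from fold and -log10 p, which gave whole numbers for 100% of peaks (within 0.001 of the deposited -log10 p). This was tested on simulated data. The list medians were 15 and 13 fragments. The members and lists were chosen with earlier results of these data known. All members were named, with their strongest peak per list and each peak within 1 kb of a start, and of the wider list the genes with a peak at a start or the most shared peaks, of which 1 gene is not reported here. Gene starts and sequences came from RefSeq, GRCh38.p14. Exon positions were not used. Alternatives varied the window, peak threshold, overlap and gene assignment. Python 3.11.15, pandas 2.3.3 and scipy 1.17.1 were used.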

Additional observations from a re-analysis of the deposited data

How the results depend on the processing

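Of 46 values under alternatives, 33 stayed within counting error or 1.5 times and 13 did not. A window of 10 kb gave 19 untreated and 11 etoposide peaks, one of 100 kb gave 61 and 41, and keeping only peaks with a member as nearest protein-coding gene gave 20 and 12. Among the 10000 strongest peaks of each list there were 8 and 8 peaks, 5 members with an untreated peak, an untreated shared share of 62.5% and 1 member with an untreated peak at its start. With 3 kb from the start, 6 members had an untreated and 4 an etoposide peak. With lists of equal length, chosen after seeing the data, there were 25 untreated and 20 etoposide peaks. The shared shares were then 44% untreated and 55% etoposide, against 37.1% and 65% in the main count. They were 25.7% and 45% when at least 50% of both peaks had to overlap. With peaks up to 500 bp apart taken as shared they were 51.4% and 70%. No paired analysis was possible because each condition had 1 library. The number of fragments per peak limits what can be told apart.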
